A study of Mus musculus with 4 samples.

Results

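The genes described here are the axon guidance ligands and receptors of the classical families, chosen by symbol: semaphorins of classes 3 to 7, plexins, neuropilins, ephrins, Eph receptors, Slits, Robos, netrins, Dcc and the Unc5 receptors. The rule took 68 protein-coding genes of the 31053 in the count tables, 34 ligands and 34 receptors in 10 families. They were measured in primary cortical neurons cultured from wild-type C57BL/6J mouse embryos at embryonic day 18, with floxuridine added to limit dividing cells. RNA crosslinked to the small-subunit ribosomal protein RPS2 was recovered by enhanced crosslinking and immunoprecipitation (eCLIP) and sequenced as 2 IP libraries, and 2 total RNA libraries were made from the same samples before the pulldown. The study divided IP by total RNA per gene as an eCLIP-based translational efficiency, and the question here is how the guidance genes lay on that ratio. All 4 libraries shared genotype, tissue and age, and no other treatment separated them, except that the labels give depletion of ribosomal RNA for the IP libraries and none for total RNA. The methods place this step after library preparation without saying which libraries went through it. If the labels hold, its effect cannot be told apart from the IP.

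Axon guidance proteins steer growing axons by attraction or repulsion at the growth cone. Semaphorins signal through plexins, with neuropilins as coreceptors for most secreted class 3 members. Ephrins, which are themselves membrane bound, signal through Eph receptor tyrosine kinases and can also signal in reverse. Slits repel axons through Robo receptors, and netrins attract through Dcc or repel through Unc5 receptors. Many of these proteins stay in neurons after axons have reached their targets, where they act on dendrites and synapses, and several of their mRNAs are known for local translation in axons.

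Plexin mRNAs stood lowest on the ratio of RPS2 IP to total RNA. Of the 8 plexins tested, 7 fell, by 0.31 to 0.64 on the log2 scale, and Plxna3 alone was not called (0.13 ± 0.19, SE). Over all families, 61 of the 68 genes had enough counts to test, and 14 of them were lower in the IP while 2 were higher, Efna5 and Epha4. Among all 12336 genes tested, 7.55% were called lower and 6.63% higher, against 23.0% and 3.28% of the guidance genes. A gene was called when its adjusted p-value was below 0.05 in an edgeR quasi-likelihood fit with the replicate number as a block, so that each IP library was set against the total RNA of the same number. Without that pairing 0 guidance genes and 0 of all genes were called by edgeR, with 1 guidance gene and 349 of all genes at an unadjusted p below 0.05. With the block, DESeq2 called 9 guidance genes lower and limma-voom 14, against 382 and 927 of all 12336 genes. Of all calls 46.8% were higher in the IP, against 24.4% with scaling to library totals only, where 0 guidance genes were higher and 11 lower, and 29.3% in DESeq2, where 0 were higher. Library totals alone called 283 of the 12336 genes higher and 878 lower, and DESeq2 called 158 higher.

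The median log2 ratio of the 61 guidance genes was -0.16, with -0.18 in replicate pair 1 and -0.14 in pair 2, while the median of all genes was 0.01. Receptors had a median of -0.25 and ligands of -0.12, and 10 of 31 receptors fell against 4 of 30 ligands. Plexins made up 7 of those 10 receptors. Without the plexins, receptors had a median of -0.18 and 3 of 23 were called lower. The ratio kept its sign between the pairs for 44 of 61 guidance genes (72.1%), against 66.5% of all genes. The IP values stood entirely above or below the total RNA values for 12 guidance genes (19.7%), against 31.8% of all genes. Among the called genes this held for 4 of the 14 lower and 1 of the 2 higher.

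**Figure D1:**
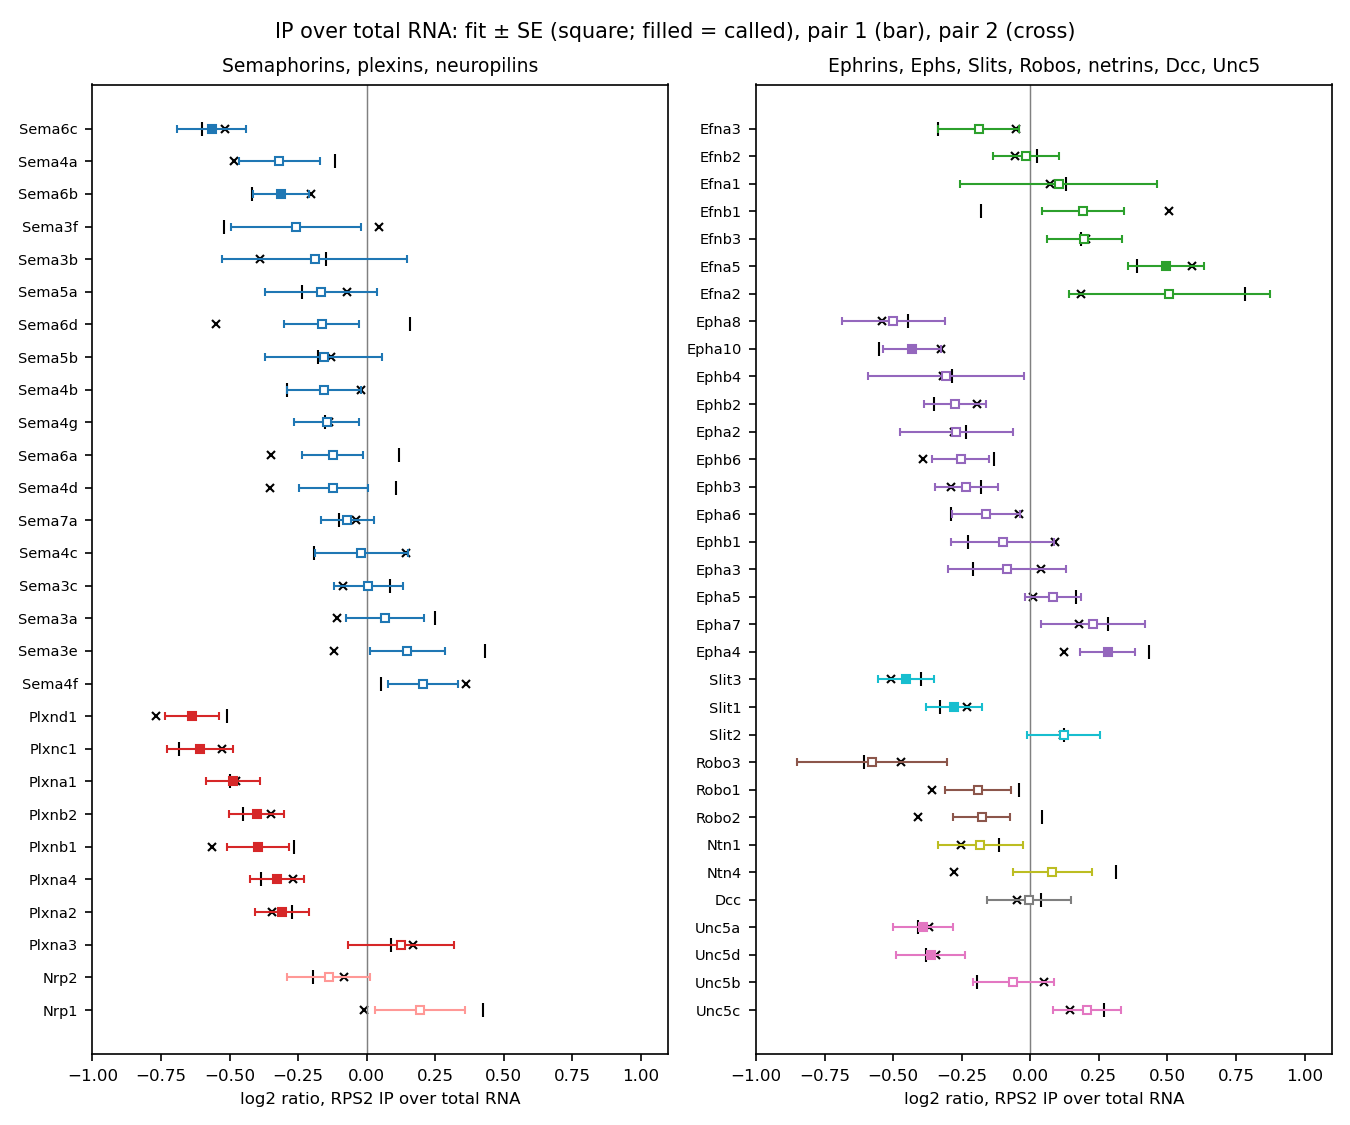
Log2 ratio of RPS2 IP over total RNA for the 61 guidance genes tested, by family. Squares are the edgeR fit with its standard error and are filled where the gene was called, bars are replicate pair 1 and crosses are pair 2. Of the 8 plexins, 7 lie below 0 in both pairs, and of the 7 ephrins 5 have a fitted value above 0.

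Library totals ran from 4899718 to 16460545 counts. A single non-coding gene, Gm42418, held 42.6 and 27.9% of them in the IP of replicates 1 and 2, and 39.8 and 15.3% in total RNA. The guidance genes held 0.43 to 0.59% of the counts. Levels are given in CPM, counts scaled to a common library size. The summed level of 5 neuronal markers was 2572.8 to 3219.3 CPM and that of 4 inhibitory neuron markers 1063.7 to 1203.4, while 4 endothelial markers summed to 0.72 to 1.78, with Cldn5 at 0 in all 4 libraries. Replicates 1 and 2 differed in some markers of other cells: 5 astrocyte markers summed to 2597.2 and 1168.2 CPM in total RNA, 5 microglial markers to 58.8 and 4.93, and 5 markers of meningeal fibroblasts to 24.9 and 5.26. Markers of the oligodendrocyte lineage were closer, with 6 summing to 65.7 and 51.8. Single markers also went the other way, Mbp of that lineage at 32.7 and 41.1 CPM and the fibroblast marker Dcn at 0.45 and 1.97. In such bulk samples fewer cells of a type and less RNA per cell cannot be told apart. Nothing in the sources says whether the replicates were separate cultures, so p-values cannot be taken to measure the spread between cultures. In the edgeR fit with the block, which leaves 1 residual degree of freedom, they rest on a dispersion trend shared across genes.

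The coding starts of the 8 plexins tested are shown because this is the family that moved together and Plxna3 is the exception in it. Each is the first 99 coding bases of the longest complete coding transcript in GENCODE M21 on GRCm38, 5′ to 3′ along the mRNA, with G and C in capitals. They lie in 1 coding exon each, at chr6:89357547-89357645 (minus strand), chr1:194643760-194643858 (plus), chrX:74330996-74331094 (plus), chr6:32517581-32517679 (minus), chr9:109100078-109100176 (plus), chr15:89167916-89168014 (minus), chr10:94944480-94944578 (minus) and chr6:115994707-115994805 (minus).
Plxna1: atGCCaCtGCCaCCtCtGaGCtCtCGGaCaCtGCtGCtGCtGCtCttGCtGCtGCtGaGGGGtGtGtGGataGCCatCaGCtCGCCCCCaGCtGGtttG
Plxna2: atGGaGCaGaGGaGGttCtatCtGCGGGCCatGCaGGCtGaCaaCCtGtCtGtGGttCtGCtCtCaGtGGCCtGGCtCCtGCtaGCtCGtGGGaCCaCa
Plxna3: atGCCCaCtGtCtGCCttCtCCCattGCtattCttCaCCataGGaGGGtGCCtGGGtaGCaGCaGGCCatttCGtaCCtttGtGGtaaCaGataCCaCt
Plxna4: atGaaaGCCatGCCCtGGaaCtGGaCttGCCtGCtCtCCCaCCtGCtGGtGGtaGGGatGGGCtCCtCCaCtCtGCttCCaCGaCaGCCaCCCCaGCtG
Plxnb1: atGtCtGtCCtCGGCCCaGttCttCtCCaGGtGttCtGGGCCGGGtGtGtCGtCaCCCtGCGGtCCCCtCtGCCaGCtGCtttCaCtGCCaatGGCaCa
Plxnb2: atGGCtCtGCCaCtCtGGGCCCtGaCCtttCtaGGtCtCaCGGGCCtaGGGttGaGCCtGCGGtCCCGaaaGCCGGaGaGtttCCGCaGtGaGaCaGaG
Plxnc1: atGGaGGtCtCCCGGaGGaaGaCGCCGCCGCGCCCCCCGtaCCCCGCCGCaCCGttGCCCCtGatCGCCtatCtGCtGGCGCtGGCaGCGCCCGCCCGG
Plxnd1: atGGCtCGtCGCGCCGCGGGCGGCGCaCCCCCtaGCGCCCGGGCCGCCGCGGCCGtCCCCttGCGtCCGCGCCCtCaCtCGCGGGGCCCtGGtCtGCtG

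G and C made up 81.8% of these bases in Plxnd1 and 75.8% in Plxnc1, the plexins with the lowest ratios. Plxna3, with the highest, had 51.5%. The other 5 plexins had 59.6 to 61.6%. Over the 8 genes the Spearman correlation of this GC share with the log2 ratio was -0.94, where 4 genes share 1 value of GC. It leans on Plxnc1, Plxnd1 and Plxna3, since the other 5 lie close together. The family was picked for these same ratios, so the value describes the 8 genes and tests nothing. The same correlation was -0.25 over the 59 guidance genes tested with a usable window around the start codon. Over 11705 such genes of the whole table it was -0.15. Around the start codon, 55 of 59 guidance genes tested with a usable window had a purine at position -3 (93.2%, against 86.2% of all genes), counted with the A of ATG as position 1. The 4 without it were Plxnc1, Plxnd1, Ephb6 and Sema4d, of which the last 2 were not called. Of the 14 guidance genes called lower, 12 had the purine (85.7%), near the 86.2% of all genes. The windows of Plxnc1 and Plxnd1 are shown with position -3, the ATG and position 4 in capitals. They lie at chr10:94944570-94944590 and chr6:115994797-115994817, both on the minus strand. Plxna1 stands beside them (chr6:89357637-89357657, minus strand) as a plexin that fell with a purine at that place.
Plxnc1: ccccctagcCccATGGaggtc
Plxnd1: gcgctcgccTggATGGctcgt
Plxna1: ccccagcccAccATGCcactg

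Plxnd1, the receptor for Sema3e, gave 424.9 and 238.8 CPM in total RNA of replicates 1 and 2, and 298.2 and 140.3 CPM in the IP. Its log2 ratio was -0.64 ± 0.099 (SE), a level 1.55-fold lower in the IP, with an adjusted p of 2.44e-08 in edgeR's quasi-likelihood test. The IP library was the lower one in each pair, and the groups overlapped because replicate 1 exceeded replicate 2 in both. Plxnc1, a receptor for Sema7a, gave 61.9 and 58.7 CPM in total RNA and 38.5 and 40.6 in the IP. Its log2 ratio was -0.61 ± 0.12 (edgeR adjusted p = 2.73e-05). The IP values did not reach those of total RNA, and Plxnc1 was the 1 plexin for which the groups did not overlap.

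Class A plexins pair with neuropilins to receive class 3 semaphorins and also bind class 6 semaphorins directly. Plxna1 gave 504.4 and 318.1 CPM in total RNA and 357.0 and 228.5 in the IP, a log2 ratio of -0.49 ± 0.098 (edgeR adjusted p = 3.32e-05). Plxna4, which with Nrp1 receives Sema3a, gave 435.1 and 558.2 CPM in total RNA and 332.9 and 463.4 in the IP (-0.33 ± 0.098, edgeR adjusted p = 0.0103). Plxna2 gave 493.2 and 379.0 CPM in total RNA and 408.6 and 298.6 in the IP (-0.31 ± 0.098, edgeR adjusted p = 0.0172). In all 3 genes the IP was lower in each pair, while the groups overlapped. Plxna3 had far fewer counts, with 20.0 and 11.0 CPM in total RNA and 21.3 and 12.4 in the IP and a wider standard error (0.19) than the called plexins (0.098 to 0.12).

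Class B plexins are receptors for class 4 semaphorins. Plxnb2 gave 386.1 and 185.7 CPM in total RNA and 282.5 and 145.9 in the IP, with a log2 ratio of -0.40 ± 0.099 (edgeR adjusted p = 0.00107). Plxnb1, the receptor for Sema4d, gave 133.2 and 53.6 CPM in total RNA and 110.9 and 36.2 in the IP, also at -0.40 (± 0.11, edgeR adjusted p = 0.00554). Both stood higher in replicate 1, by 2.08-fold and 2.48-fold in total RNA. Plxnb3 had 3 counts in 1 IP library and 0 in the other 3 libraries and was not tested.

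**Figure D2:**
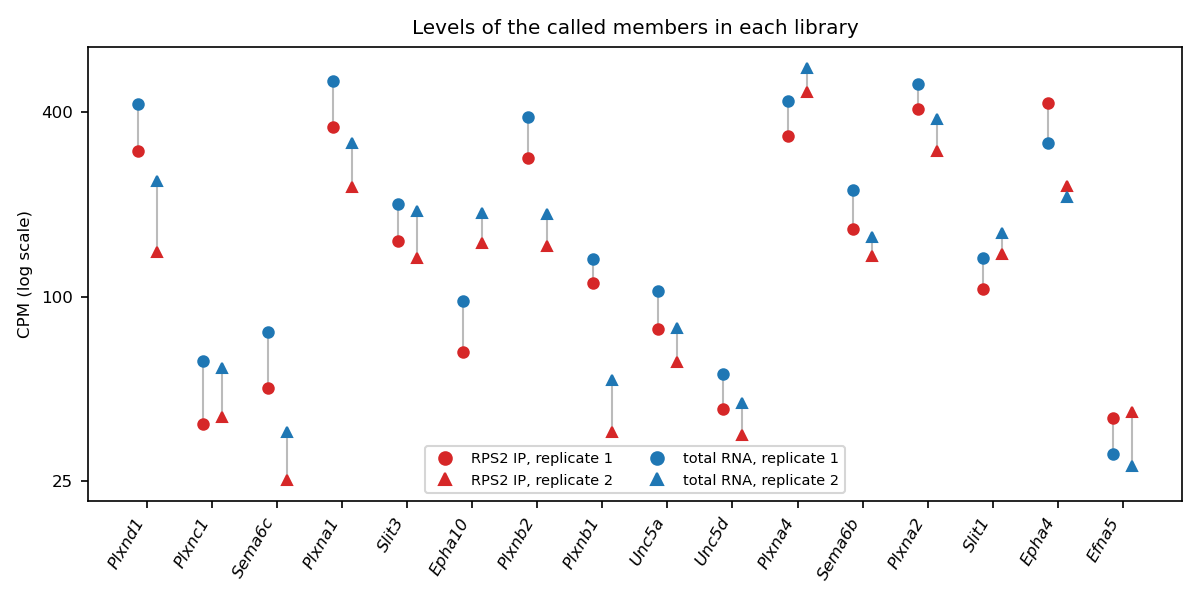
Levels in CPM (log scale) of the 16 called guidance genes in each of the 4 libraries, ordered by log2 ratio. Circles are replicate 1 and triangles replicate 2, red is the RPS2 IP and blue total RNA, and grey lines join the libraries of a pair. For Plxnd1 the IP stands at 298.2 and 140.3 CPM below total RNA at 424.9 and 238.8, and for Efna5 the order is turned.

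Of 18 semaphorins tested, the ligands of the plexins, 2 were called, both lower and both transmembrane members of class 6. The share called lower, 11.1%, is near the 7.55% of all genes, and 0% were called higher, against 6.63%. Sema6c gave 76.6 and 36.2 CPM in total RNA and 50.4 and 25.2 in the IP, the lowest ratio among the ligands (-0.57 ± 0.12, edgeR adjusted p = 0.000192). Sema6b, the semaphorin with the second highest total RNA level per kilobase, gave 222.4 and 156.2 CPM in total RNA and 166.4 and 135.7 in the IP (-0.31 ± 0.10, edgeR adjusted p = 0.0194). The IP was lower in each pair of both genes, although the groups overlapped. Sema7a, a semaphorin anchored to the membrane by a lipid, had the highest level of all the guidance genes in total RNA, 94.1 ± 7.89 CPM per kilobase of exon (SD, n = 2), and its CPM stood at 328.9 and 292.1 in total RNA and 306.3 and 284.5 in the IP. Its log2 ratio of -0.07 ± 0.098 was not called.

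The secreted class 3 semaphorins had a median log2 ratio of 0.01, and none of the 5 tested was called. Sema3a, the classic repellent of cortical axons, gave 30.3 and 31.1 CPM in total RNA and 36.0 and 28.8 in the IP (log2 ratio 0.07 ± 0.14). Sema3c, Sema3e, Sema3b and Sema3f ranged from -0.26 to 0.15, and 4 of the 5 changed sign between the pairs. Sema3d and Sema3g were not tested, with at most 9 counts in any library. The 12 transmembrane semaphorins of classes 4 to 6 had a median of -0.16 and 11 were below 0, against 6011 of all 12336 genes tested. Sema4f, at 0.21 ± 0.13, was the exception and the highest semaphorin, and the uncalled others were Sema4a, Sema4b, Sema4c, Sema4d, Sema4g, Sema5a, Sema5b, Sema6a and Sema6d, at -0.32 to -0.02.

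The neuropilins, which bind class 3 semaphorins together with plexins, were not called. Nrp1 gave 17.8 and 22.7 CPM in total RNA and 24.0 and 22.5 in the IP (log2 ratio 0.20 ± 0.16), and Nrp2 gave 30.1 and 26.1 CPM in total RNA and 26.2 and 24.7 in the IP (-0.14 ± 0.15). Whether the class A plexins that fell differed from Sema3a or Nrp1 was not tested. An annotated small RNA lies in the counted exons of Nrp1 (Mir1903) and of Sema4a (Mir7011), so their counts could include it.

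Ephrins stood at the other end of the scale, with a median log2 ratio of 0.19 over 7 genes. Of these 1 was called higher (14.3%, against 6.63% of all genes) and 0 lower. Efna5, a lipid-anchored ephrin that repels axons in topographic mapping, gave 30.7 and 27.9 CPM in total RNA and 40.3 and 42.2 in the IP. Its log2 ratio was 0.50 ± 0.14, a level 1.41-fold higher in the IP (edgeR adjusted p = 0.00471). With an offset for GC content and exonic length it was 0.35 (edgeR adjusted p = 0.0968), and with GC content and coding length 0.21 (edgeR adjusted p = 0.483), so the call did not hold in either. The IP values were above those of total RNA in every library, without overlap. Efna2 had the highest ratio of any ligand (0.51 ± 0.37) but only 3.45 to 6.29 CPM and was not called. Efnb1, a transmembrane ephrin, gave 25.2 and 25.8 CPM in total RNA and 22.2 and 36.7 in the IP, so that its pairs disagreed in sign (-0.18 and 0.51) and the fitted 0.19 ± 0.15 was not called. Efna3, the ephrin with the highest total RNA level per kilobase (12.3 ± 0.41 CPM per kilobase, SD, n = 2), stood at -0.19 ± 0.15. Efna1, Efnb2 and Efnb3 ranged from -0.02 to 0.20, and Efna4 was not tested, with at most 6 counts in any library.

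The 13 Eph receptors tested had a median of -0.23, with 1 called higher and 1 lower. Each is 7.69% of them, near the 6.63% higher and 7.55% lower of all genes. Epha4, a receptor for ephrins of both classes, gave 317.1 and 211.1 CPM in total RNA and 428.5 and 230.0 in the IP. Its log2 ratio was 0.28 ± 0.099 (edgeR adjusted p = 0.0348), the highest of the receptors. Epha4, like Efna5, was called in 5 of the 9 alternatives that kept the block. The IP was higher in each pair, by 0.43 and 0.12 on the log2 scale, and the groups overlapped. Epha10, which lacks kinase activity, moved the other way, with 96.9 and 187.4 CPM in total RNA and 66.0 and 149.5 in the IP (-0.43 ± 0.11, edgeR adjusted p = 0.000981). It was higher in replicate 2, so the groups overlapped although each IP library lay below its pair.

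The coding starts of the genes that rose are printed in the same form, 1 ligand and 1 receptor of the ephrin system, beside that of Epha10. They lie at chr17:62881032-62881130 (minus strand, 1 exon), chr1:77511743-77515031 (minus strand, in 2 exons of that span) and chr4:124881875-124881973 (plus strand, 1 exon), and G and C made up 59.6%, 43.4% and 68.7% of them.
Efna5: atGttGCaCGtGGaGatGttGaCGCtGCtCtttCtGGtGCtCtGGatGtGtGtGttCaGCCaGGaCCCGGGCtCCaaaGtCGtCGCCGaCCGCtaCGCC
Epha4: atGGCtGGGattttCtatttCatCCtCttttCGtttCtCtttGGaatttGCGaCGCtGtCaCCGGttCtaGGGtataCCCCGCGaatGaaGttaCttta
Epha10: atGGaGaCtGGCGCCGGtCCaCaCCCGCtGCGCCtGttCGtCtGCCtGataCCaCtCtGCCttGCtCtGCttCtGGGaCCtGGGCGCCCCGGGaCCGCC

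Epha5, a receptor for Efna5, gave 120.0 and 175.1 CPM in total RNA and 134.6 and 176.1 in the IP (log2 ratio 0.08 ± 0.10, not called). The 5 EphB receptors, which bind transmembrane ephrins, all had a fitted ratio below 0, from -0.31 to -0.10, but none was called. Ephb2 gave 92.6 and 62.3 CPM in total RNA and 72.6 and 54.4 in the IP (-0.28 ± 0.11, edgeR adjusted p = 0.0851). Ephb1 gave 26.9 and 9.53 CPM in total RNA and 23.0 and 10.1 in the IP, and its pairs differed in sign. Ephb6, the Eph receptor with the highest total RNA level per kilobase (39.3 ± 19.7 CPM per kilobase, SD, n = 2), stood at -0.25 ± 0.10 (edgeR adjusted p = 0.0853). Of the rest, Ephb3, Ephb4, Epha2, Epha3, Epha6, Epha7 and Epha8 ranged from -0.50 to 0.23. Epha1 had 1 count in all 4 libraries together and was not tested.

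Slits and their receptors did not move as a set. Slit3 gave 200.0 and 189.9 CPM in total RNA and 151.7 and 133.5 in the IP, a log2 ratio of -0.45 ± 0.10 (edgeR adjusted p = 0.000226), and the groups did not overlap. It also had the highest total RNA level per kilobase of the Slits, 32.1 ± 1.18 CPM per kilobase (SD, n = 2). Slit1 gave 133.6 and 161.6 CPM in total RNA and 106.2 and 137.8 in the IP (-0.28 ± 0.10), and its edgeR adjusted p of 0.0498 was the closest to the threshold among the calls. Slit1 and Sema6b were each called in 3 of the 9 alternatives that kept the block, the fewest of the 16 called genes. Slit2, at 30.7 and 41.4 CPM in total RNA and 33.5 and 45.0 in the IP, had a ratio of 0.12 ± 0.13 and was above 0 in both pairs. Whether Slit3 differed from Slit2 was not tested.

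The Robo receptors were not called. Robo1 gave 63.7 and 42.4 CPM in total RNA and 61.9 and 33.1 in the IP (-0.19 ± 0.12). Robo2, with the highest total RNA level per kilobase of the Robos, gave 165.0 and 125.4 CPM in total RNA and 170.1 and 94.4 in the IP (-0.18 ± 0.10), and its ratio was 0.04 in pair 1 and -0.41 in pair 2. Robo3, known from commissural axons, had a low ratio with a wide error (-0.58 ± 0.27, edgeR adjusted p = 0.151) at 2.78 to 17.8 CPM. Robo4, a receptor of endothelial cells, had 1 count in all.

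Neither of the 2 netrins tested was called, nor was Dcc, while 2 of the 4 Unc5 receptors fell. Ntn1 gave 30.5 and 24.0 CPM in total RNA and 28.2 and 20.1 in the IP (-0.18 ± 0.15). Ntn4, the netrin with the highest total RNA level per kilobase, gave 46.3 and 17.9 CPM in total RNA and 57.6 and 14.7 in the IP (0.08 ± 0.14). Dcc, the attractive receptor, gave 29.2 and 23.3 CPM in total RNA and 30.0 and 22.5 in the IP, a log2 ratio of -0.004 ± 0.15. Ntn5 was not tested, with at most 15 counts in any library.

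Unc5a gave 104.0 and 79.2 CPM in total RNA and 78.3 and 61.3 in the IP (-0.39 ± 0.11, edgeR adjusted p = 0.00554), and it was the Unc5 gene with the highest total RNA level per kilobase, at 22.0 ± 4.20 CPM per kilobase (SD, n = 2). Unc5d gave 55.9 and 44.9 CPM in total RNA and 42.9 and 35.3 in the IP (-0.36 ± 0.12, edgeR adjusted p = 0.0305). For both genes the 2 IP libraries lay below the 2 total RNA libraries. Unc5b (-0.06 ± 0.15) and Unc5c (0.21 ± 0.12) were not called, and both IP values of Unc5c were the higher ones, at 54.6 and 48.7 CPM against 45.2 and 44.1.

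Across the whole table the ratio moved with the coding length and base composition of genes, and the guidance families differ in both. The Spearman correlation of the log2 ratio with coding length was -0.43 over 12132 genes and -0.45 over the 61 guidance genes, or -0.32 without the plexins. With the GC content of the transcripts it was -0.32 over 12328 genes and -0.49 over the guidance genes. These correlations are across genes of the same 4 libraries. The median coding length was 5680.5 bases in plexins and 690 in ephrins, against 1464 over all genes, and the guidance genes had a median GC content of 55.9% against 50.5%. Median GC content was 56.0% in plexins and 57.6% in ephrins, so these families differed far more in coding length. With an offset for GC content alone the median log2 ratios of plexins and ephrins were -0.33 and 0.34, against -0.40 and 0.19 without it. With an offset for GC content and coding length they were -0.05 and 0.21, so the ephrin median was not lower than without an offset. Why the 2 families differ on the ratio was not tested.

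**Figure D3:**
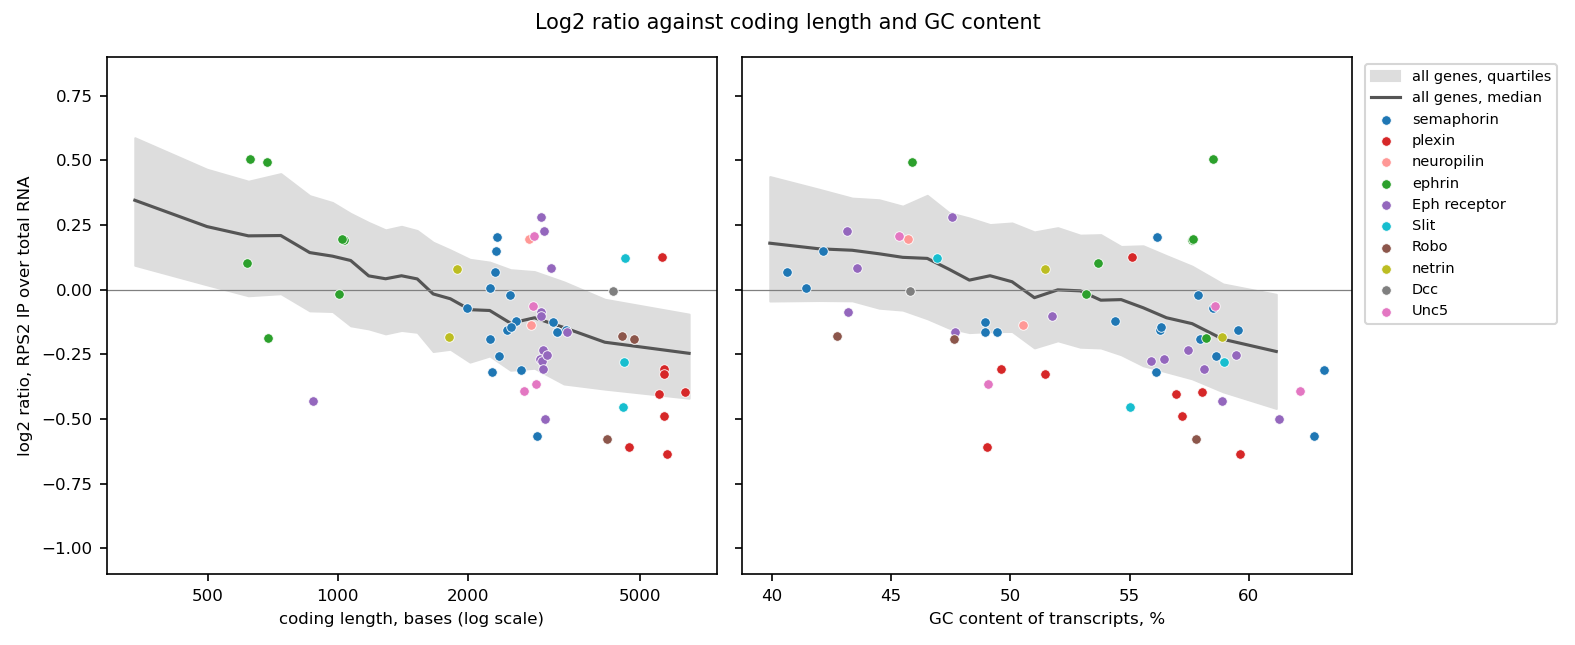
Log2 ratio of RPS2 IP over total RNA against coding length in bases (left, log scale) and GC content of the transcripts in percent (right). Points are the 61 guidance genes coloured by family, the dark line is the median of all genes in 20 bins of equal size and the grey band their quartiles. The plexins sit at the long end, with a median of 5680.5 bases, and the ephrins at the short end, with 690.

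Each offset was a trend fitted over all genes to these same pair ratios. It therefore takes out, by construction, any part of the ratios that follows that trend. A fit with an offset for GC content and exonic length, with the replicate block, called 3 guidance genes lower, Plxnc1 (-0.54), Plxnd1 (-0.30) and Slit3 (-0.31), and 2 higher, Epha4 (0.31) and Sema4f (0.37). In that fit 2.56% of 12328 genes were called lower and 4.71% higher. The median of the guidance genes was -0.01, that of the plexins -0.13 and that of the ephrins 0.33. Of the plexins, 7 of 8 were still below 0 but 2 were called. With coding length in place of exonic length the calls were Plxnc1 (-0.40) and Epha10 (-0.38) lower and Epha4 (0.38) and Sema4f (0.43) higher, where the longest complete coding transcript of Epha10 in this annotation has only 876 bases. In that fit 225 of 12132 genes were called lower and 360 higher. Plxnc1 was called lower in each of the 9 alternatives that kept the block. Each of the other 6 plexins lost its call with at least 1 of the offsets. Without an offset, scaling to library totals ended the calls of Plxna2 and Plxna4, fitting with no low-count filter that of Plxna2, and DESeq2 that of Plxnb1. With coding length the ratios of Plxnb1, Sema6b, Slit1 and Unc5a turned to between 0.028 and 0.14.

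**Figure D4:**
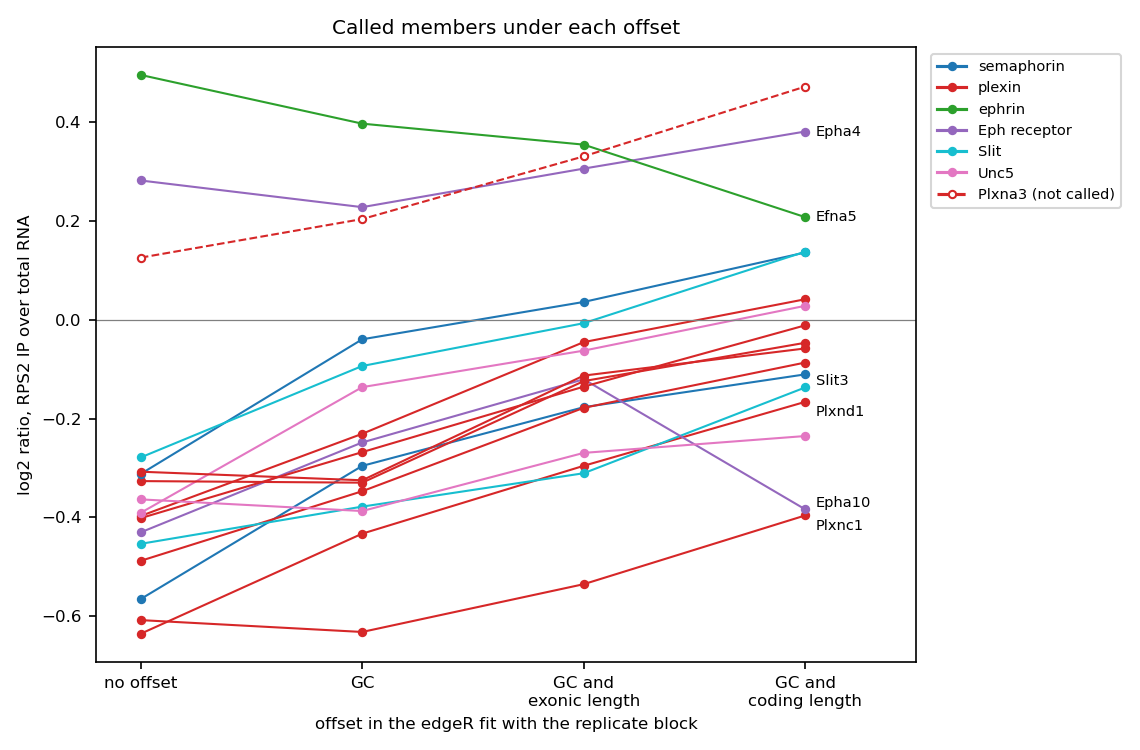
Log2 ratio of RPS2 IP over total RNA for the 16 called guidance genes and for Plxna3 (dashed) in the fit with no offset and in 3 fits with offsets, all with the replicate block. Lines join the values of 1 gene, coloured by family. Plxnc1 goes from -0.61 to -0.40 and Epha4 from 0.28 to 0.38, while most of the plexins approach 0.

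Some guidance genes differed between the replicates by far more than between IP and total RNA. Sema3b, a secreted semaphorin, gave 14.0 CPM in total RNA of replicate 1 and 0.66 in replicate 2, 21.3-fold apart, and 12.6 and 0.45 in the IP. Robo3 was 4.52-fold, Ephb1 2.83-fold and Ntn4 2.59-fold higher in the total RNA of replicate 1. Epha2 was 4.08-fold and Epha10 1.93-fold higher in that of replicate 2. The IP libraries of the same numbers showed these differences too, with 5.64 and 22.5 CPM for Epha2 and 57.6 and 14.7 for Ntn4. With 1 total RNA library per replicate there is no test of them, and the summed astrocyte, microglial and fibroblast markers given above moved between the same libraries. Their part in these values was not tested.

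**Figure D5:**
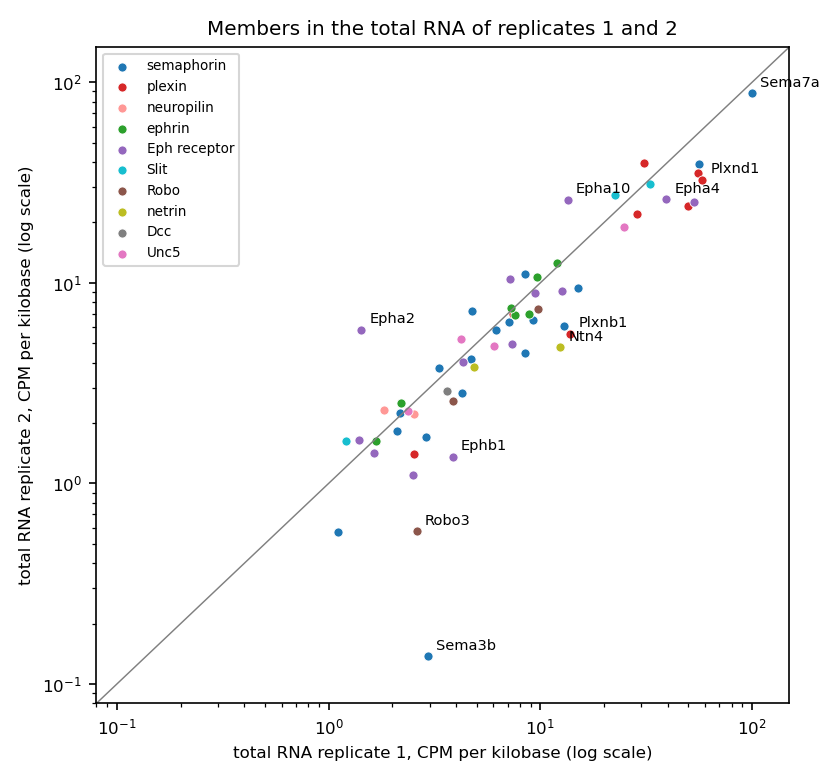
Level of the guidance genes tested in total RNA of replicate 1 against replicate 2, in CPM per kilobase of exon (both axes log scale), coloured by family. The line marks equal levels. Most genes lie near it, while Sema3b lies 21.3-fold to the side of replicate 1 and Epha2 4.08-fold to that of replicate 2.

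Further cues and coreceptors outside these families, a list of 40 genes that were all tested, held 3 called higher (7.5%, against 6.63% of all genes) and 8 called lower (20.0%, against 7.55%), with a median log2 ratio of -0.04. The share called higher is near that of all genes. Those lower were the netrin receptor Dscam (-0.59 ± 0.10) and its relative Dscaml1 (-0.71 ± 0.10), the receptor phosphatases Ptprs (-0.41) and Ptprf (-0.36), the atypical cadherin Celsr3 (-0.60), Lingo1 (-0.34) and Rtn4rl2 (-0.42) of the Nogo receptor system, and Boc (-0.44), a receptor for Sonic hedgehog. Those higher were Fzd3 (0.39 ± 0.11), a Wnt receptor, the adhesion molecule Chl1 (0.35) and Flrt2 (0.34), a ligand of Unc5 receptors. Dscam and Dscaml1 were also called lower once GC content and exonic length were offset, at -0.48 and -0.42, as were Fzd3 and Chl1 higher. Wnt7b, at 0.27 and not called without that offset, was called higher with it (0.53, edgeR adjusted p = 0.00055).

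Among 55 intracellular effectors of guidance receptors, 5 were called higher (9.09%, against 6.63% of all genes) and 11 lower (20.0%, against 7.55%), with a median log2 ratio of -0.08. The share called higher is near that of all genes here too. The higher ones included the small GTPases Cdc42 (0.67 ± 0.11), Rhoa (0.58 ± 0.12) and Rac1 (0.58 ± 0.11), the actin-severing protein Cfl1 (0.40) and the Rac regulator Chn1 (0.45), which acts downstream of Epha4. The lower ones included the oxidoreductases Mical2 (-0.54) and Mical3 (-0.52), which act downstream of plexins, the exchange factors Trio (-0.38), Kalrn (-0.34), Tiam1 (-0.40) and Arhgef11 (-0.32), the kinases Src (-0.38), Abl1 (-0.56), Abl2 (-0.34) and Limk2 (-0.56), and Pdzrn3 (-0.44). With GC content and exonic length offset, Cdc42, Rhoa, Rac1 and Chn1 were still called higher and Mical2, Limk2 and Pdzrn3 lower.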

How the data were processed

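Counts were taken for 2 RPS2 IP and 2 total RNA libraries of mouse cortical neurons, grouped by GEO's labels. The deposited values are raw read counts per gene. Per the file headers, the authors counted with featureCounts 1.5.3 in stranded mode on mm10, and reads at several loci or in several genes were not counted, so genes with near-identical copies are uncertain. No removal of duplicates was named. The authors' reads were single-end.

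The tests ran in edgeR 4.0.16 (R 4.3.3): filterByExpr, TMM scaling, and a two-sided quasi-likelihood test with the replicate number as a block, Benjamini-Hochberg adjusted over 12336 genes at 0.05. The block was used because total RNA was drawn from each sample ahead of its IP. Deviations from the group means correlated at 0.733 across genes between same-numbered libraries. It leaves 1 residual degree of freedom, and edgeR estimated an infinite prior, so adjusted p-values lean on a shared dispersion trend. CPM were scaled by TMM. Standard errors are the log2 ratio divided by the root of F. Pair ratios used a prior count of 2. Symbols, coding lengths, GC content over transcripts and sequences came from GENCODE M21, which named 31011 of 31053 identifiers. Small RNAs were assigned to exons that cover at least 50% of their bases. The edgeR fit with the block was also run on simulated counts. Those were drawn with a common dispersion for all genes, so they cannot check the reliance on a shared dispersion.

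Guidance genes, further lists and markers were chosen with earlier results of these data known. Genes named in full were those called, the highest per kilobase in each family, the extremes of each role and 16 ligands and receptors picked as known partners. Feature correlations are descriptions. Alternatives were DESeq2 1.42.0, limma-voom (limma 3.58.1), other scalings and filters, offsets fitted to these same pair ratios, each pair left out and no block.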

Additional observations from a re-analysis of the deposited data

How the results depend on the processing

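All alternatives kept the replicate block unless named, and values are log2 ratios. Without the replicate block 0 guidance genes were called higher and 0 lower, with an adjusted p of 1.00 for each of the 16, and the sign turned for Dcc (0.0041). Leaving out 1 library leaves nothing to compare in its pair under the block, so pairs were left out whole, which gives values with no test: the median of the guidance genes was -0.18 to -0.14 and the ligand median minus the receptor median 0.13 to 0.19. DESeq2 called 0 higher and 9 lower, with no adjusted p for 18 guidance genes, and turned Sema3c (-0.017). Library totals alone gave 0 higher and a median of -0.24, and turned Ntn4 (-0.0041), Sema3a (-0.015), Sema3c (-0.073). Median-ratio scaling gave 1 higher and turned Sema3c (-0.011). At least 10 counts per library turned Dcc (0.0058), and no filter turned Dcc (0.019), Efnb2 (0.0076), Sema4c (0.0031). No called guidance gene turned in these fits. Of 12336 genes, median-ratio scaling called 721 higher. With GC alone 730 of 12328 genes were called higher and 607 lower. GC alone, an offset chosen after seeing the data, gave 1 higher, 8 lower and a median of -0.093, and turned Efnb2 (0.0082), Epha5 (-0.062), Ntn1 (0.0033), Sema3a (-0.093), Sema3c (-0.16), Sema3e (-0.011), Sema4c (0.14), Sema5b (0.043), Sema7a (0.10), Unc5b (0.11). GC and exonic length gave 3 lower and a median of -0.0071, and turned Efna1 (-0.021), Efnb2 (0.091), Ephb2 (0.045), Ephb3 (0.014), Nrp2 (0.025), Ntn1 (0.10), Ptprs (0.057), Sema3b (0.054), Sema3c (-0.13), Sema4b (0.021), Sema4c (0.19), Sema4d (0.050), Sema4g (0.018), Sema5a (0.031), Sema5b (0.17), Sema6b (0.036), Sema7a (0.10), Unc5b (0.21). GC and coding length, also chosen after seeing the data, gave 2 lower, a median of 0.033 and a ligand minus receptor difference of 0.080, and turned Dcc (0.12), Efna1 (-0.049), Epha2 (0.0045), Ephb1 (0.074), Ephb3 (0.070), Ephb4 (0.016), Ephb6 (0.11), Kalrn (0.0059), Nrp2 (0.011), Ntn1 (0.058), Plxnb1 (0.041), Ptprf (0.060), Ptprs (0.059), Rtn4rl2 (0.0015), Sema3b (0.085), Sema3c (-0.052), Sema3f (0.033), Sema4b (0.084), Sema4c (0.26), Sema4d (0.081), Sema4g (0.097), Sema5b (0.23), Sema6a (0.019), Sema6b (0.14), Sema7a (0.18), Slit1 (0.14), Unc5a (0.028), Unc5b (0.26). Apart from the offsets' own construction, the cause was not tested. The 7 genes not tested had at most 15 counts in a library, and low counts limit Efna1, Efna2 and Sema3b most.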
